A study of Tupaia belangeri with 6 samples.

Results

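GFAP-free astrocytes are nuclei of the tree shrew (TS) hippocampus that carried transcripts of astrocyte genes but no transcript of GFAP, the intermediate filament protein most often used to stain astrocytes. They were taken from single-nucleus RNA-seq of 3 control and 3 ALP TSs (Alzheimer's-like pathology) on the 10× Genomics 3′ platform, with each library taken to be 1 animal. Both groups were naturally aged and age-matched animals without transgene or drug, and the study's methods assigned them to ALP or control by their performance in a maze. The labels give the tissue and the group, but not the sex of each animal. A nucleus was a member where the unique molecular identifiers (UMIs, each 1 captured RNA molecule) of AQP4, SLC1A3 and GJA1 summed to at least 3, with 0 UMIs of GFAP and 0 UMIs of MOG, PDGFRA, PTPRC, GAD1 and NEUROD6, which mark other cell types. Of 37603 nuclei 1847 were members, or 4.91%. The condition of at least 200 genes removed no barcode, since the lowest number of genes was 235.

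Astrocytes clear glutamate from the synapse through the transporters SLC1A2 and SLC1A3, let water pass at the vessel through AQP4, and couple to each other through GJA1. GFAP is abundant in fibrous astrocytes and in reactive ones, whereas many astrocytes of healthy grey matter hold little of it. P2RY1, a receptor for ADP that raises calcium, and RORB, a nuclear receptor, are other genes of astrocytes.

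The control libraries 1, 2 and 3 held 302, 197 and 385 GFAP-free nuclei, and the ALP libraries 1, 2 and 3 held 200, 420 and 343. Their median depth was 2151, 2335 and 2234 UMIs per nucleus in the control libraries and 1668, 1792 and 1720 in the ALP libraries, so that every ALP library was shallower than every control library. The rule rests mainly on SLC1A3, which was found in 99.6% of the members and gave 89.6% of the UMIs that chose them, while AQP4 was found in 46.6% and GJA1 in 5.85%. At the border of the rule, 268 members had a marker sum of exactly 3 and 532 nuclei with a sum of 2 were left just outside. Another 797 nuclei passed the marker sum without GFAP but carried a UMI of one of the excluded genes. No barcode of a member was shared between libraries.

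Absence of a GFAP UMI is not absence of GFAP. Without the GFAP condition the rule chose 2952 nuclei, and 62.6% of them were GFAP-free. Of the 1105 GFAP-carrying nuclei 557 held a single GFAP UMI and 311 held at least 3, with 9.57, 8.65 and 7.45 GFAP UMIs per 10000 in the control libraries and 10.6, 10.2 and 9.47 in the ALP libraries. In a member of median depth (1979 UMIs) a count of 0 still allows up to 15.2 GFAP UMIs per 10000, more than that average. This limit covers counting error only.

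RORB and P2RY1, which the rule did not use, were both found in the members. RORB had a UMI in 60.4% and P2RY1 in 16.6% of the GFAP-free nuclei, against 1.52% and 0.244% of 3693 nuclei chosen by the oligodendrocyte gene MOG, with a median of 1715 UMIs, where such UMIs can come from free RNA. Of the GFAP-carrying nuclei (median 2081 UMIs) 59.3% had a UMI of RORB and 14.4% one of P2RY1. SLC1A2 was found in 66.5% of the members and in 5.93% of the MOG nuclei, and SLC4A4, a bicarbonate transporter, in 85.5% and 16.1%. GFAP itself had a UMI in 2.22% of the MOG nuclei. Of the 22 astrocyte identity genes listed, ALDOC, S100B, ACSBG1 and MLC1 are listed at 0 UMIs in the members, as are GAPDH and ENO1. The cause of these zeros was not tested, and nothing is read from them. MLC1 did have a count in the GFAP-carrying nuclei of ALP 2.

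Not all members were led by astrocyte genes. Clustering of the 1847 nuclei gave 8 clusters. Clusters 1 and 2, with 747 and 699 nuclei, had no raised markers of another cell type and held 78.3% of the members. Cluster 3 (189 nuclei, median 6355 UMIs) was led by the neuronal genes KCNIP4 and RYR3, and cluster 5 (54 nuclei, median 7486 UMIs) by the interneuron genes ZNF385D and RELN. Cluster 4 (71 nuclei) was led by VCAN and LHFPL3 of oligodendrocyte precursors, cluster 6 (40 nuclei) by ST18 of oligodendrocytes, cluster 7 (35 nuclei) by SPATA17 and DNAH6 of ciliated cells, and cluster 8 (12 nuclei) by CLDN5 of endothelial cells. These 401 nuclei, 21.7% of the members, go against the label, and the main results are therefore given with and without them. No doublets were removed, and the part of doublets in these clusters was not tested.

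The summed level of the astrocyte identity genes over the 6 libraries was between 32.9 and 44.9 UMIs per 10000 with all members and between 51.6 and 61.6 without clusters 3 to 8. The most abundant of these genes was SLC4A4, with 35.5% of the list's UMIs. The oligodendrocyte precursor markers had 10.6, 6.68 and 5.72 UMIs per 10000 in the control libraries with all members and 1.35, 0.825 and 0.648 without those clusters, and 4.16, 4.97 and 3.72 against 0.430, 0.636 and 0.366 in the ALP libraries. The excitatory neuron markers, led by SYT1, stood at 13.1, 23.0 and 15.6 in control and 11.7, 15.6 and 10.3 in ALP libraries before, and at 3.03, 4.82, 4.42, 2.94, 3.52 and 3.04 after. The ependymal and choroid plexus list summed to 18.1 UMIs per 10000 in Control 1 against 4.48 to 8.21 in the other 5 libraries. Within clusters 1 and 2 this was due to TTR, a choroid plexus gene, with 2098 UMIs per 1e6 in Control 1 and 3.17 to 115 in the other libraries, while SPAG17 had 342 there and 371 to 699.5 elsewhere and FOXJ1 was at 0 in all 6.

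**Figure D1:**
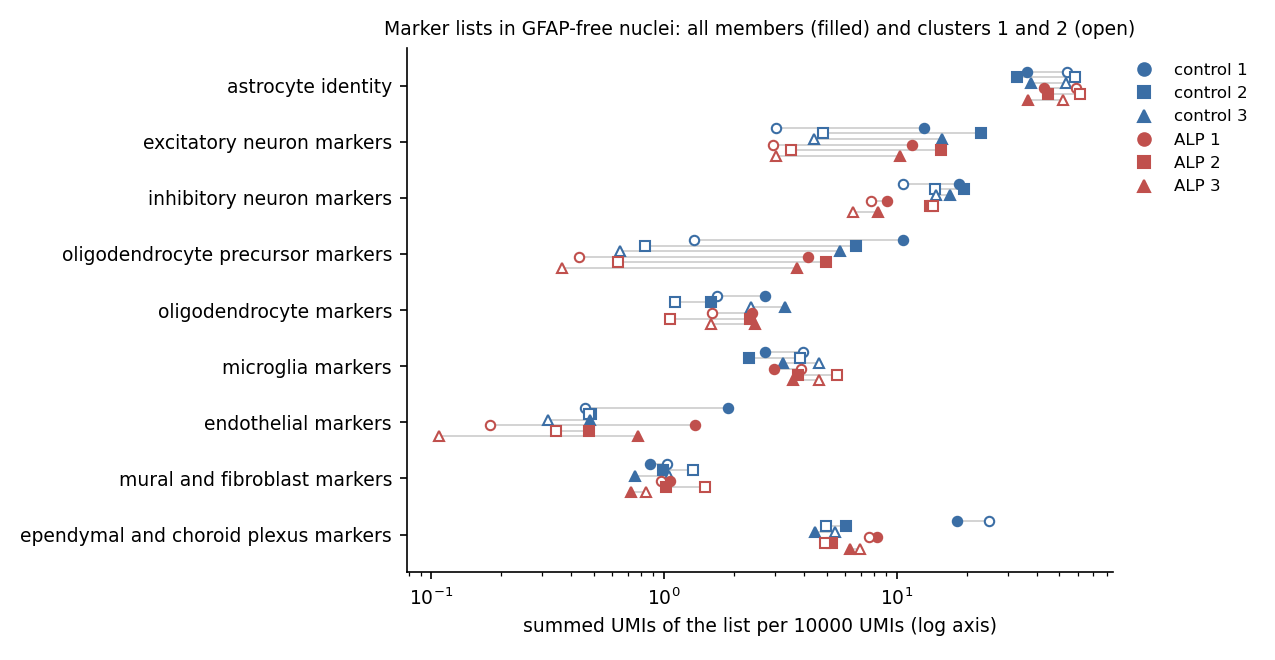
Summed UMIs of marker lists per 10000 UMIs (log axis) in the GFAP-free nuclei of each library, for all members (filled) and for clusters 1 and 2 only (open), with blue for control and red for ALP. The astrocyte identity genes lie between 32.9 and 61.6, and the precursor markers drop to between 0.366 and 1.35 in the open symbols.

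Clusters 1 and 2 followed the groups of animals. Cluster 1 was led by P2RY1, INSYN2A, SLC14A2 and ALDH1L1, and 592 of its nuclei came from control and 155 from ALP libraries. Cluster 2 was led by CST3, TOMM40, MT2 and SLC14A1, and 71 of its nuclei came from control and 628 from ALP libraries. Of the 155 ALP nuclei in cluster 1, 130 came from ALP 2. Because P2RY1 in cluster 1 and CST3, TOMM40 and MT2 in cluster 2 also differed between the groups, the sizes of these clusters are no separate measurement and nothing is read from them.

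The first question was whether GFAP-free astrocytes make up another share of nuclei in ALP TSs. Their share of all nuclei was 3.44%, 6.54% and 4.83% in control and 3.93%, 5.87% and 6.13% in the ALP libraries, and the groups overlapped (4.94% ± 1.56 against 5.31% ± 1.20, SD, n = 3 each, two-sided exact permutation p = 0.8). Among the nuclei chosen without the GFAP condition, 55.2%, 56.9% and 63.4% were GFAP-free in control and 76.0%, 60.5% and 69.3% in ALP libraries (58.5% ± 4.33 against 68.6% ± 7.79, SD, n = 3 each, exact permutation p = 0.2). ALP 1 held the highest share and ALP 2 lay within the control range. Nuclei were then thinned to 1000 UMIs and shallower ones left out, which kept 535, 338 and 597 nuclei in control and 248, 681 and 473 in ALP libraries. The shares were 73.5%, 76.0% and 78.5% in control and 81.7%, 72.2% and 78.7% in ALP libraries (76.0% ± 2.49 against 77.5% ± 4.83, SD, n = 3 each, exact permutation p = 0.7). When both sets were clustered together and clusters led by other cell types were left out, the ALP minus control differences were 0.651, 10.6 and 1.72 percentage points, beside 0.373, 10.1 and 1.54 with all members. The smallest p that 3 against 3 libraries allow is 0.1. A difference in the share without GFAP was thus not detectable at this depth and number of animals.

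**Figure D2:**
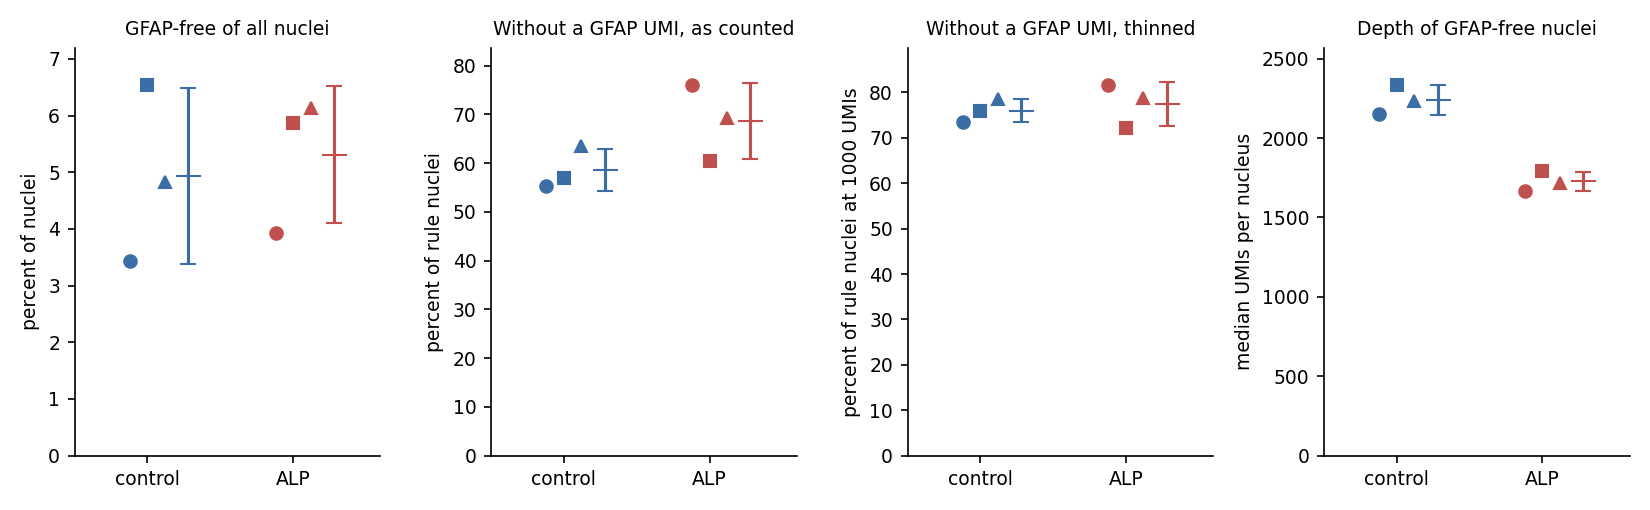
GFAP-free nuclei per library as percent of all nuclei, percent of nuclei chosen without the GFAP condition as counted and after thinning to 1000 UMIs, and their median depth in UMIs, with circles, squares and triangles for libraries 1, 2 and 3 and bars for mean ± SD (n = 3). The groups overlap in the 3 shares but not in the depth, 2151 to 2335 against 1668 to 1792 UMIs.

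The second question was which genes differ between ALP and control in the GFAP-free nuclei. UMIs were summed over the members of a library and compared with edgeR, and a call needed an adjusted p under 0.05 as well as a log2 fold change over 0.25. Of 9424 features 90 were called (0.955%), 38 higher (0.403%) and 52 lower (0.552%) in ALP TSs, and 1828 had an unadjusted p under 0.05. Among the 40 called genes with a plain symbol 28 were higher and 12 lower. Among 1069 antisense-named features 1 was higher and 26 were lower.

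The largest rise was that of FBP1, fructose-bisphosphatase, an enzyme of gluconeogenesis. Control libraries held 3, 0 and 2 of its UMIs and ALP libraries 15, 26 and 21, or 3.08, 0 and 1.77 against 39.2, 26.2 and 32.8 CPM. CPM are UMIs scaled to the library's total over the tested features, adjusted by the scaling factor of edgeR (TMM). The log2 fold change was 4.06 (SE 0.55, adjusted p = 0.0316), and 4.70 without clusters 3 to 8 (adjusted p = 0.00765). FBP1 was the only called gene among the 14 tested of 28 genes of glycolysis, gluconeogenesis and glycogen. Their median log2 fold change was 0.53, and 13 of the 14 had a value above 0. Over all features the median was 0.0020, with 4731 of 9424 above 0. Without clusters 3 to 8 the median of the 13 tested was 0.37.

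CST3, cystatin C, a secreted inhibitor of cysteine proteases, was among the most abundant of the genes that rose. It stood at 1066, 679 and 685 CPM in control and 3243, 1553 and 2898 CPM in ALP libraries, with ALP 2 the lowest of the ALP libraries but above every control library. The log2 fold change was 1.66 (SE 0.27, adjusted p = 0.037). TOMM40, the channel of the mitochondrial outer membrane translocase, had 680.0, 773 and 554 CPM in control and 2441, 1492 and 1842 CPM in ALP libraries (log2 fold change 1.52, SE 0.20, adjusted p = 0.0316). Both were called again without clusters 3 to 8, at 1.49 and 1.38.

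The metallothioneins MT2 and MT3, which bind zinc and copper, were called higher as well. MT2 had 126, 80.0 and 52.1 CPM in control and 402, 160.3 and 377 CPM in ALP libraries (log2 fold change 1.84, SE 0.37, adjusted p = 0.0472). MT3, the form of the brain, had 930.3, 1246 and 711 CPM in control and 2739, 1580.1 and 2773 CPM in ALP libraries (log2 fold change 1.30, SE 0.25, adjusted p = 0.045). MT3 was the only called gene among 10 tested stress and early response genes, whose median was -0.04. In MT2 and MT3 the ALP 2 library was again the lowest of its group, and without clusters 3 to 8 they had 1.59 and 1.12, with adjusted p of 0.0626 and 0.0633 that missed the threshold.

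SPARCL1, a secreted matrix protein of astrocytes, had 387, 424 and 381 CPM in control and 752, 842 and 818 CPM in ALP libraries (log2 fold change 1.02, SE 0.15, adjusted p = 0.0316). Its groups were tight, 397.5 ± 23.4 against 804 ± 46.6 CPM (SD, n = 3 each). It was the only called gene among 26 tested of 31 matrix, adhesion and synapse-facing genes, whose median was 0.16, and it had 0.75 without clusters 3 to 8 (adjusted p = 0.068).

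The other large rises were those of RNASE1, a secreted ribonuclease (log2 fold change 2.43), MST1 (2.28), BTBD17 (2.16), NDUFAF3, an assembly factor of respiratory complex I (1.48), PAXX, a factor of DNA end joining (1.46), and GSN, gelsolin, which severs actin (1.46). RNASE1 rests on few molecules, with 4, 1 and 8 UMIs in control and 8, 21 and 21 in ALP libraries. MST1 and BTBD17 had 10.3, 11.4 and 6.18 and 11.3, 11.4 and 7.95 CPM in control libraries and between 40.3 and 54.8 CPM in ALP libraries. BTBD17 and GSN were called again without clusters 3 to 8, RNASE1 (2.05), NDUFAF3 (1.32) and PAXX (1.14) had smaller values there and missed the threshold, and MST1 was not tested. Of features without a plain symbol, LINC-ID4-15 rose from 34.9, 22.9 and 29.1 to 136, 136 and 161 CPM (log2 fold change 2.30, adjusted p = 0.00299), and HMGB1li28 (2.94) and LINC-MRPL42-2 (2.04) were the other large rises. Without clusters 3 to 8 LINC-MRPL42-2 was called again (2.09, adjusted p = 0.0492) and HMGB1li28 was not (2.79, adjusted p = 0.0552).

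P2RY1 was among the genes that fell. It had 96.4, 139 and 124 CPM in control and 31.3, 59.5 and 48.5 CPM in ALP libraries, without overlap (log2 fold change -1.30, SE 0.25, adjusted p = 0.045). Without clusters 3 to 8 it fell by 1.55 on the log2 scale (adjusted p = 0.0293). A UMI of P2RY1 was found in 21.2%, 31.0% and 23.9% of the control and 6%, 11.9% and 7.87% of the ALP members, which were also shallower, against 0.244% of the MOG nuclei. P2RY1 was the only called gene among 19 tested of 21 receptors and calcium signalling genes, whose median was 0.09. RORB did not move with it. It had 391, 346 and 306 CPM in control and 608, 516 and 755 CPM in ALP libraries, without overlap, but missed the threshold (log2 fold change 0.85, SE 0.18, adjusted p = 0.0516), with 0.61 without clusters 3 to 8 (adjusted p = 0.153). ALDH1L1, a folate enzyme that marks astrocytes, had 49.2, 60.0 and 109 CPM in control and 33.9, 26.2 and 39.1 CPM in ALP libraries (-1.18, SE 0.34, adjusted p = 0.1), with -1.40 without those clusters (adjusted p = 0.0656).

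Some of the other genes that fell, such as CACNA1A and DLGAP1, are better known from neurons, but this grouping was not tested. Clusters 3 to 8 held 25.8% ± 6.23 of the members in control and 18.2% ± 2.24 in ALP libraries (SD, n = 3 each, exact permutation p = 0.2), and the interneuron cluster 5 held 9, 17 and 13 control and 3, 8 and 4 ALP nuclei. Of the excitatory neuron markers 8 were tested and 0 called, with a median log2 fold change of 0.11 and 6 values above 0. Without clusters 3 to 8 the median of 4 tested was -0.47. Of the inhibitory neuron markers 3 were tested and 0 called, with a median of -0.71. Their sum was 18.6, 19.4 and 17.0 UMIs per 10000 in control and 9.08, 13.9 and 8.27 in ALP libraries, but 96.4% of it was ERBB4, which in these data also had 34.2 UMIs per 10000 in MOG nuclei and 20.6 in PDGFRA nuclei, and GAD2 was at 0. In clusters 1 and 2 the sum was 10.6, 14.7 and 14.8 in control and 7.78, 14.3 and 6.51 in ALP libraries, with overlap.

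CACNA1A, the pore subunit of a presynaptic calcium channel, had 306, 211 and 298 CPM in control and 146, 117 and 111 CPM in ALP libraries (log2 fold change -1.14, SE 0.20, adjusted p = 0.045). SNTG1, a syntrophin, had 633, 1040.2 and 855 CPM in control and 462, 387 and 435 CPM in ALP libraries (-0.98, SE 0.19, adjusted p = 0.0472). SNTG1 was called again without clusters 3 to 8 (-1.14), and CACNA1A had -1.41 there with an adjusted p of 0.0626. CCDC85C (-1.53, and -1.36 with an adjusted p of 0.0881 without clusters 3 to 8), ZNF385D (-1.41), the adhesion molecule CNTN6 (-1.33), the membrane protein ANO4 (-1.29), the receptor kinase ALK (-1.16), the sarcoglycan SGCZ (-1.14) and the postsynaptic scaffold DLGAP1 (-0.95) were the others of the 10 largest falls. ZNF385D leads cluster 5, and with ANO4, CNTN6 and SGCZ it was too low to be tested without clusters 3 to 8. CNTN6 had 0, 6.35 and 4.32 UMIs per 1e6 in control and 3.59, 1.72 and 4.31 in ALP libraries there. ZNF385D had 25.2, 12.7 and 20.2 against 7.17, 6.87 and 17.2. Both overlapped between the groups. ANO4 had 18.3, 12.7 and 18.7 against 10.8, 1.72 and 0 there, without overlap. SGCZ had 13.757, 50.8 and 61.9 against 7.17, 13.746 and 12.9, so that Control 1 and ALP 2 were nearly equal. ALK and DLGAP1 were at -0.62 and -0.44 there and were not called. Among antisense-named features F5-AS-2 had 12, 23 and 22 UMIs in control and 0, 1 and 0 UMIs in ALP libraries and was called again without clusters 3 to 8 (adjusted p = 0.0293). CCDC88A-AS-2 had 19, 10 and 64 against 1, 3 and 0, and ANK3-AS-1 had 31, 61 and 120 against 2, 12 and 0, and both were too low to be tested without those clusters. ANK3-AS-1 had 0, 9.52 and 7.20 UMIs per 1e6 in control and 0 in all 3 ALP libraries there.

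**Figure D3:**
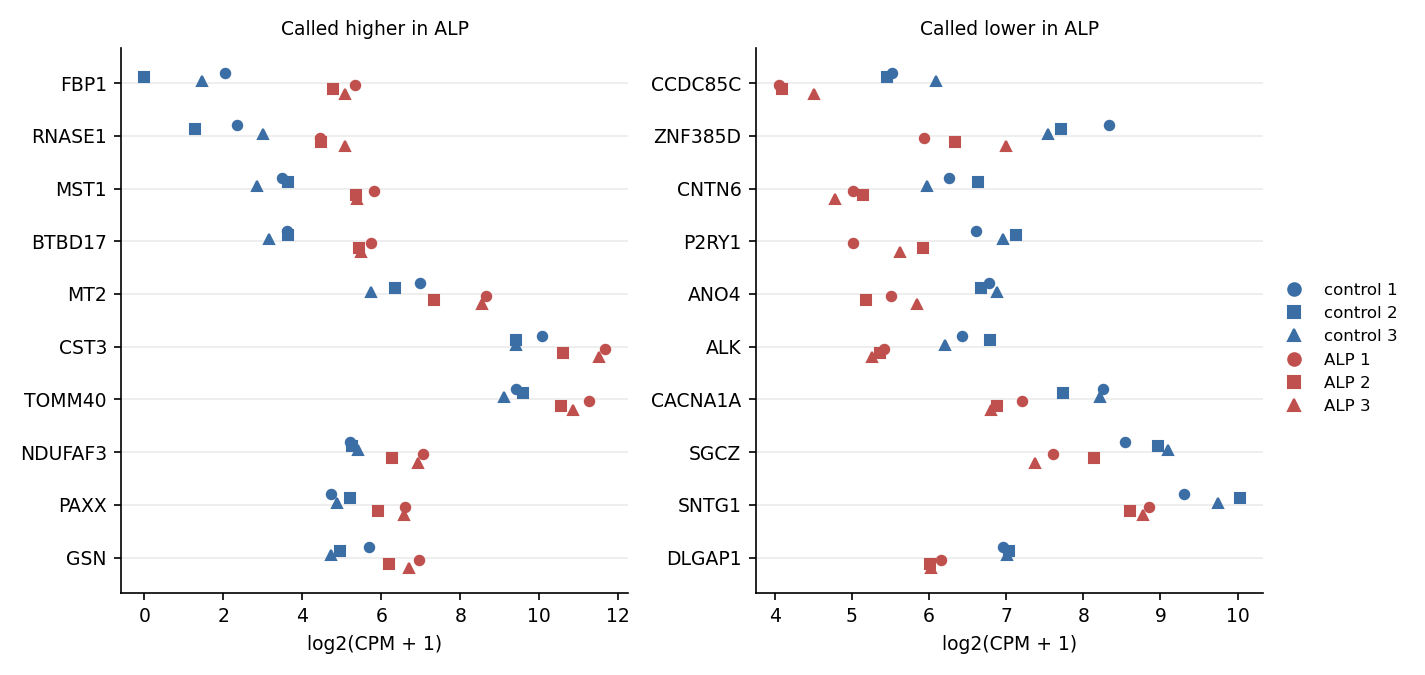
Levels in GFAP-free nuclei, as log2(CPM + 1) per library, of the 10 largest rises and 10 largest falls among called genes with a plain symbol, with blue for control, red for ALP, and circles, squares and triangles for libraries 1, 2 and 3. In each gene the 3 ALP libraries lie on one side of the 3 control libraries.

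Most functional lists held few calls or none. None of the 14 tested astrocyte identity genes, 14 glutamate and GABA handling genes, 10 transport genes for ions and water, 25 transcription factors or 16 lipid genes was called, where 0.955% of all features were, so that nothing particular to these lists follows from it. SLC1A2 had 415, 383 and 546 CPM in control and 759.8, 469 and 699 CPM in ALP libraries, with overlap (log2 fold change 0.51, adjusted p = 0.215, and 0.26 without clusters 3 to 8). The medians of these lists were 0.37, 0.27, 0.32, 0.27 and 0.21, and 0.12, 0.17, 0.10, 0.01 and 0.12 without clusters 3 to 8. Of 25 reactive astrocyte genes 10 were tested and 0 called, with a median of 0.52. CHI3L1, a secreted chitinase-like protein, had 29.7, 60.0 and 40.6 CPM in control and 125, 85.7 and 108 CPM in ALP libraries (1.29, SE 0.27, adjusted p = 0.0512, and 1.28 without clusters 3 to 8, adjusted p = 0.0656). S100A6, which binds calcium, had 56.4, 45.7 and 18.5 CPM in control and 180.2, 66.6 and 134 CPM in ALP libraries (1.63, SE 0.41, adjusted p = 0.0753), and passed without clusters 3 to 8 (1.92, adjusted p = 0.0367). The filament gene VIM overlapped between the groups (0.82, adjusted p = 0.407).

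Leaving clusters 3 to 8 out gave 43 called of 6187 features (0.695%), 15 higher (0.242%) and 28 lower (0.453%), of which 25 were among the 90. In all 90 called features the 3 ALP libraries lay on one side of the 3 control libraries, as they did in 2288 (24.3%) of all features tested. The calls also rested on single libraries: without ALP 1 or Control 3 only LINC-ID4-15 was called, without ALP 3 none was (1394 at an unadjusted p under 0.05), and without Control 1 there were 461. Measures of the RNA differed between libraries too. The long intergenic transcript LINC-FRMD8-1 made up 16.8%, 23.9% and 21.0% of the members' UMIs in control and 28.1%, 23.5% and 29.98% in ALP libraries, with overlap. In the nuclei outside both the GFAP-free and the GFAP-carrying set its share was 17.3% ± 2.82 against 25.9% ± 3.06 (SD, n = 3 each, without overlap). Antisense-named features made up 7.39% ± 1.48 against 4.61% ± 0.260 (SD, n = 3 each, without overlap), and in the nuclei outside both sets 8.06% ± 1.84 against 5.07% ± 0.452. Depth, these shares and the groups of animals cannot be told apart with these libraries. Without antisense-named features 55 features were called, 54 of them among the 90. Without LINC-FRMD8-1 95 were called, and all of the 90 were among them.

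The third question was what else distinguishes GFAP-free from GFAP-carrying nuclei of the same animal. The nuclei were split by GFAP alone, and the 9 genes of the rule were left out. With the library as a block, 986 of 8330 features were called (11.8%), 516 higher (6.19%) and 470 lower (5.64%) in the GFAP-free nuclei. GFAP-carrying nuclei were slightly deeper in 5 of the 6 libraries, with a median of 2295, 2540 and 2206.5 UMIs in control and 1699, 1883.5 and 1865.5 in ALP libraries.

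Genes lower in GFAP-free nuclei included several that reactive astrocytes are known to raise. SNCG, gamma-synuclein, had 76.8, 51.9 and 43.5 CPM in the GFAP-free and 443, 485 and 144 CPM in the GFAP-carrying nuclei of the control libraries. In the ALP libraries it had 84.6, 61.7 and 84.9 CPM against 169, 117 and 445 CPM. It was lower in 6 of 6 libraries (log2 fold change -2.11, SE 0.18, adjusted p = 3.26e-08). CEBPD, a transcription factor of the acute phase response, had 38.9, 14.8, 10.9, 52.8, 33.9 and 48.7 CPM against 91.7, 53.7, 39.3, 159, 148 and 158 CPM (-1.71, SE 0.16, adjusted p = 6.77e-08). Of the 10 tested reactive astrocyte genes 6 were lower and 0 higher, with a median of -0.76 beside -0.0030 over all features. They were CHI3L1 (-1.34), S100A6 (-1.29), the small heat shock protein HSPB1 (-1.35), VIM (-1.12), ceruloplasmin, CP (-1.002), and CD109 (-0.52). CP was too low to be tested without the clusters led by other types, where it was higher in the GFAP-free nuclei of 5 libraries (10.3 ± 3.56 against 8.53 ± 8.99 UMIs per 1e6, SD, n = 6).

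The other large falls were those of MAMU-DRA (-2.01) and CD74 (-1.74), a class II antigen-presenting chain and its partner, PFKFB2, a regulator of glycolysis (-1.75), the interferon-induced IFITM2 (-1.41), MT2 (-1.39), the growth factor HGF (-1.34) and the acyl-CoA-binding protein DBI (-1.34). CD74 is also a microglia marker, and it had 13.9 ± 7.59 CPM in GFAP-free and 48.1 ± 17.7 CPM in GFAP-carrying nuclei (SD, n = 6 libraries). Of the astrocyte identity genes 5 of 14 were lower and 0 higher, led by the chaperone CLU, with 616 ± 217 against 1162 ± 318 CPM (SD, n = 6), and the median was -0.25. Without the clusters led by other types 1 was lower and 1 higher of 13 tested, with a median of -0.03. ID3, an inhibitor of helix-loop-helix factors, had -2.10 (adjusted p = 2.78e-06) and was lower in 5 of 6 libraries, with ALP 1 as the exception. SPARC (-1.04), SPARCL1 (-0.90), the endothelin receptor EDNRB (-0.72), the chaperone HSPA5 (-0.72) and MT3 (-0.70) were lower in all 6 libraries.

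Among the genes higher in GFAP-free nuclei were markers of other cell types. LHFPL3, a precursor gene that leads cluster 4, had 530.1, 360.1, 288, 219, 206 and 185 CPM in GFAP-free and 109, 116, 94.1, 49.6, 140.1 and 92.7 CPM in GFAP-carrying nuclei (log2 fold change 1.51, adjusted p = 4.27e-07). ITGA9 (1.68), TMEM196 (1.45), PCDH15 (1.21) and CALCRL (1.30) are also among the leading genes of that cluster, and 4 of 5 tested oligodendrocyte precursor markers were higher. RAB27B, SORCS3, CUX2, CADPS2, ZNF583, IL1RAP and HMGCLL1 (1.13 to 1.42) made up the rest of the 12 largest. None of these 12 was abundant enough to be tested once clusters led by other cell types were left out. The synaptic genes SYT1 (0.81), GRIK2 (0.47) and CACNA1A (0.44) were higher with all members, while without those clusters SYT1 (-0.03) and GRIK2 (-0.33) changed sign and CACNA1A had 0.28, and none was called.

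Without the clusters led by other types in either set, 207 of 5930 features were called (3.49%), 81 higher (1.37%) and 126 lower (2.12%). Of the 470 features lower before, 436 were tested again and 113 were called lower again. Of the 516 higher before, 280 were tested again, 33 were called higher again and 63 turned in direction. SNCG (-1.82), CEBPD (-2.17), ID3 (-2.65), PFKFB2 (-1.90), HSPB1 (-1.38), MT2 (-1.20), CHI3L1 (-1.01), S100A6 (-0.92), DBI (-0.88) and CLU (-0.73) kept their calls, and of 7 tested reactive genes 5 were lower.

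Of 19 tested receptor and calcium signalling genes 4 were higher and 4 lower in GFAP-free nuclei with all members (median -0.03), and 3 were higher and 2 lower of 17 without the clusters led by other types. The neurotensin receptor NTSR2 (-0.75) and the sphingosine phosphate receptor S1PR1 (-0.76) were lower beside EDNRB. Of 14 glutamate and GABA handling genes GRM5 was higher and SLC1A2, GLUD1 and SLC7A11 were lower. GRM5, a metabotropic glutamate receptor, had 894, 834 and 979 CPM against 642, 658 and 862 CPM in control and 1059.5, 739.7 and 1056 CPM against 1041, 542 and 782 CPM in ALP libraries. It was higher in 6 of 6 libraries (log2 fold change 0.33, SE 0.08, adjusted p = 0.00693), and had 0.42 without the clusters led by other types. PLCB1, the phospholipase that follows such receptors, was higher in 6 of 6 libraries with 1194 ± 191 against 904 ± 219.9 CPM (SD, n = 6, log2 fold change 0.40, adjusted p = 0.00189). GRM3 (0.48), P2RY1 (0.56), RORB (0.27), RORA (0.26), HES1 (0.39) and GPC5 (0.42) were called only without those clusters, and had 0.18, 0.29, -0.00010, 0.13, 0.06 and 0.29 with all members. LUZP2 and CCSER1, chosen after their values were seen, were called with all members (0.54 and 0.79) and without those clusters (0.78 and 1.09). LUZP2 had 653, 1274, 1191, 1480.0, 1277 and 1022 CPM in GFAP-free and 447, 1079, 862, 843, 926 and 578 CPM in GFAP-carrying nuclei, and was higher in 6 of 6 libraries.

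**Figure D4:**
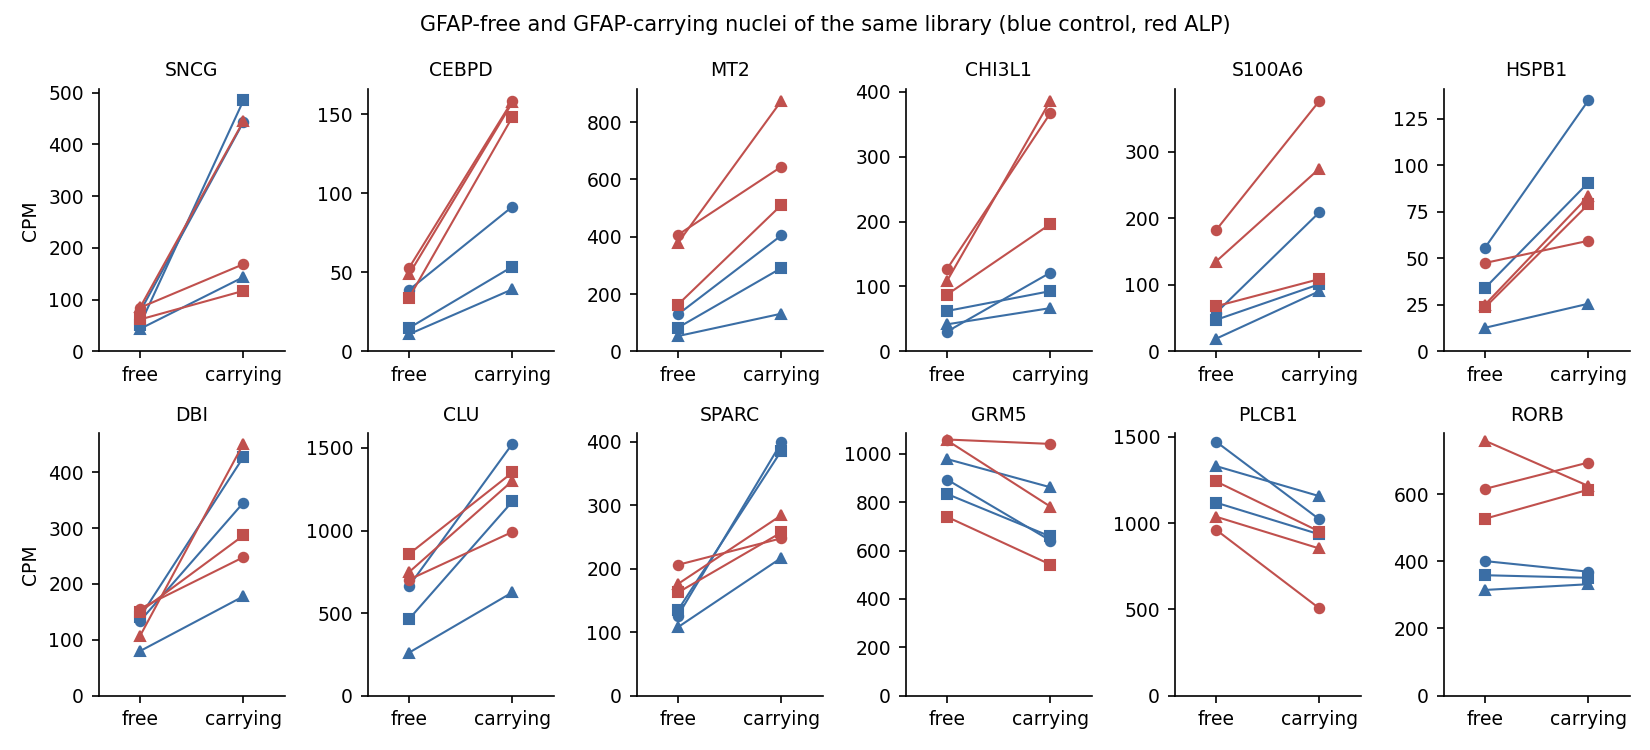
CPM of 12 genes in the GFAP-free and GFAP-carrying nuclei of each library, joined by a line, with blue for control and red for ALP. The first 9 genes are lower in the GFAP-free nuclei of all 6 libraries, GRM5 and PLCB1 are higher in all 6, and RORB is higher in 3 and lower in 3.

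Whether the ALP effect differs between GFAP-free and GFAP-carrying nuclei was tested as an interaction. Of 9998 features 10 were called (0.1%), 5 with a larger and 5 with a smaller ALP minus control value in the GFAP-free nuclei. CST3 had the smallest adjusted p. It rose from 1067, 682 and 687 CPM in control to 3249, 1561 and 2912 CPM in ALP libraries in GFAP-free nuclei, and stood at 2481, 1684 and 1455 CPM in control and 3526, 2117 and 4045 CPM in ALP libraries in GFAP-carrying nuclei. The difference of the effects was 0.85 (SE 0.14, adjusted p = 0.00395). SPARCL1 showed the same order, with 387, 427 and 383 against 753, 846 and 822 CPM in GFAP-free and 1023, 1118 and 809 against 884, 1189 and 1261 CPM in GFAP-carrying nuclei (0.82, SE 0.16, adjusted p = 0.0213). The GFAP-carrying groups overlapped for both genes.

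BCAS1 (-2.50) and LINC-RP1-21O18.1-3 (-1.31) had the opposite sign. LY6Hli1 (3.15) ranged from 4.31 to 1122 CPM among the GFAP-free libraries, and its groups overlapped. Without the clusters led by other types 11 of 7381 features were called (0.149%), 9 larger (0.122%) and 2 smaller (0.0271%). The differences of CST3 (0.61), SPARCL1 (0.62) and TOMM40 (0.55) were called again, as was that of TTR (-4.57, adjusted p = 5.99e-13), a choroid plexus gene whose level in GFAP-free nuclei was high in Control 1 alone, whereas LY6Hli1 (0.0023) and LINC-RP1-21O18.1-3 (-1.12, adjusted p = 0.99) were not called, and BCAS1 and DEPP1 could not be tested. LINC-RP1-21O18.1-3 had 78.5 to 269 CPM in the GFAP-free nuclei with all members and 4.31 to 27.1 UMIs per 1e6 without those clusters. DESeq2 called none of the 9998 features, with 133 at an unadjusted p under 0.05.

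**Figure D5:**
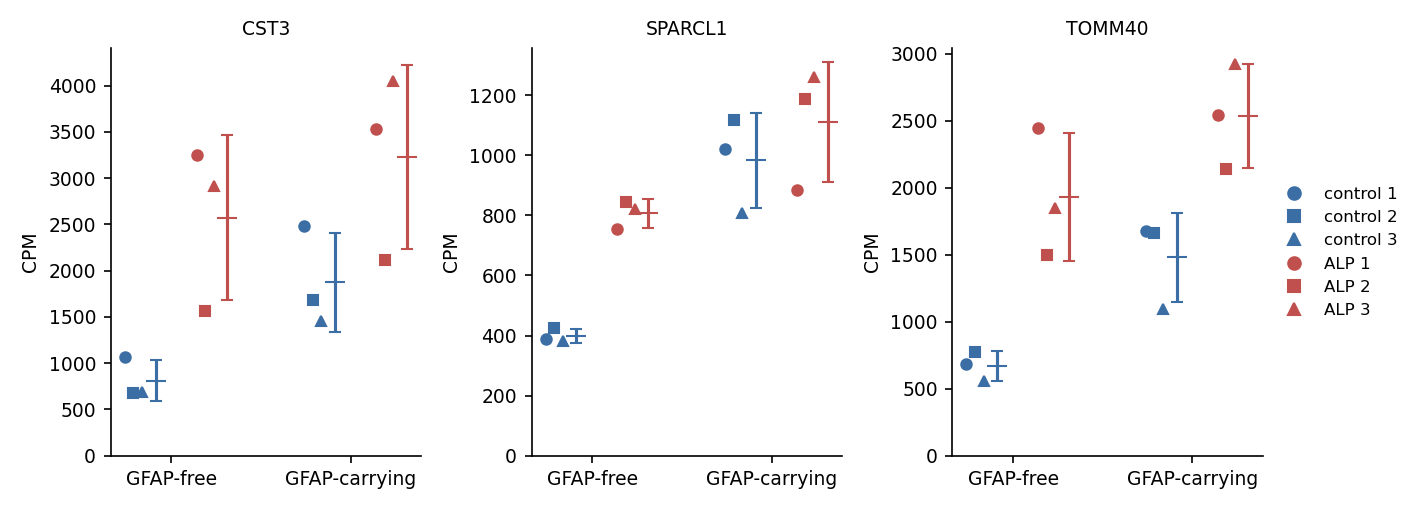
CPM of CST3, SPARCL1 and TOMM40 per library in GFAP-free and GFAP-carrying nuclei, with blue for control, red for ALP and bars for mean ± SD (n = 3). In GFAP-free nuclei every ALP library lies above every control library, and the control libraries are lowest there.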

How the data were processed

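The authors deposited 1 matrix of UMI counts per library (83605 features), made with Cell Ranger. The labels name version 3.1.0 and the matrix headers 6.1.2. The genome build and the use of strand are not given in the sources used here. The counts are raw and not normalized. LINC-FRMD8-1 held 20.7% of all UMIs. Total UMIs were 32679011, 19748976 and 35898940 in control and 20119934, 30520809 and 19182981 in ALP libraries 1 to 3.

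Members and gene lists were chosen with earlier results of these data known. UMIs were summed over the nuclei of a library and set, since nuclei of 1 animal are not replicates, and tested with edgeR 4.0.16 (quasi-likelihood, TMM, filterByExpr with a minimum count of 10, Benjamini-Hochberg adjustment over all features tested). Each fit was scaled on its own, so the CPM of a gene differ slightly between comparisons. Levels not given as CPM were divided by all UMIs of the set without a TMM factor, and are on another scale than the CPM. That each library came from 1 animal is inferred from the study's 3 ALP and 3 control TSs, since the titles give only a group and a number. Sex was not used as a covariate. Shares were compared with an exact permutation test over libraries (scipy 1.17.1). Clustering used scanpy 1.11.5 and leidenalg 0.10.2 at resolution 0.5, without the rule's genes. A cluster was set aside where it had raised markers of another cell type, an alternative chosen after seeing the data, as were leaving out antisense-named features and LINC-FRMD8-1. Other alternatives were DESeq2 1.42.0, scaling to the upper quartile, all features without a low-count filter, a marker sum of at least 5, the study's limits on genes and mitochondrial UMIs, nuclei of 1000 to 3000 UMIs, at least 3 GFAP UMIs in the comparison set, a replicate block and leaving out each library. Named genes were, in each direction, the 10 largest changes (12 between GFAP-free and GFAP-carrying nuclei) among called genes with a plain symbol and the same direction in the libraries, the 3 largest of other features, the 5 interaction features of smallest adjusted p (TOMM40 was added after its values were seen), and members of the lists. The scripts were tested on simulated data with 100 changed features of each size. Of changes of 1 on the log2 scale, 28% were recovered between ALP and control. The recovery was 79% between GFAP-free and GFAP-carrying nuclei and 23% in the interaction. For changes of 2 it was 83%, 81% and 68%. False calls numbered 5, 6 and 6.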

Additional observations from a re-analysis of the deposited data

Results flagged for a closer look

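In 10 features the ALP minus control effect differed between GFAP-free and GFAP-carrying nuclei by a test of the difference itself (edgeR interaction, log2 scale). It was larger in the GFAP-free nuclei for CST3 (0.849), SPARCL1 (0.821), TOMM40 (0.706), LY6Hli1 (3.15) and DEPP1 (4.31). It was smaller for BCAS1 (-2.50), LINC-RP1-21O18.1-3 (-1.31), TTR (-3.30), FRMD4A-AS-8 (-1.61) and ADARB2 (-1.14). TTR, the thyroid hormone carrier of the choroid plexus, had 991, 4.31 and 71.7 CPM in the control and 31.4, 4.05 and 7.86 CPM in the ALP libraries of the GFAP-free nuclei, so its level was high in Control 1 alone. DEPP1, which leads the endothelial cluster 8, had 115 CPM in ALP 1 and between 2.66 and 36.2 CPM in the other GFAP-free libraries. ADARB2, an interneuron gene that is among the leading genes of cluster 5, had 638, 784 and 430 CPM in control and 102, 287 and 303 CPM in ALP libraries of the GFAP-free nuclei. Without the clusters led by other types ADARB2 turned to 0.773 (adjusted p = 0.99), FRMD4A-AS-8 had -0.98 (adjusted p = 0.79), and neither was called. Each of the 10 lost its call in at least 1 fit that left out a library, with a highest adjusted p between 0.0605 for CST3 and 0.968 for TTR. The causes of these differences were not tested.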

How the results depend on the processing

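The ALP minus control difference in the share of all nuclei was 0.373 points and turned to -0.139 under the study's limits, -0.377 without Control 1 and -0.0363 without ALP 3 (range over left-out libraries -0.377 to 1.18). The thinned share without GFAP differed by 1.54 points and turned to -0.523 without ALP 1 (range -0.523 to 4.20), and thinning to 500 and 2000 UMIs gave 1.66 and 6.96. Thinning to 2000 UMIs kept only the deeper nuclei, 342, 259 and 391 in control and 81, 260 and 168 in ALP libraries. The unthinned share kept its direction, with 6.38 to 14.1 points over the left-out libraries. Between ALP and control in GFAP-free nuclei the count of 90 calls became 242 with DESeq2, 806 without a filter on low counts, 7 with a marker sum of at least 5, 18 under the study's limits, 18 in nuclei of 1000 to 3000 UMIs, 55 without antisense-named features, 43 without clusters led by other cell types, and 0 to 461 over the left-out libraries (0 without ALP 3, with 1394 at an unadjusted p under 0.05). A fit with the replicate block gave 261, but the titles do not say whether equal numbers pair the animals. The correlations of same-numbered libraries were 0.035, 0.12 and 0.020, beside -0.069 to 0.040 for the other pairs, which does not decide it. Between GFAP-free and GFAP-carrying nuclei 986 became 494 with DESeq2, 655 against nuclei with at least 3 GFAP UMIs, 265 with a marker sum of at least 5, 205 under the study's limits, 209 in nuclei of 1000 to 3000 UMIs, 207 without clusters led by other types and 526 to 999 over the left-out libraries, with the lowest without Control 1. The 10 interaction calls became 0 with DESeq2 (133 at an unadjusted p under 0.05), 0 with a marker sum of at least 5 (340 at an unadjusted p under 0.05), 24 without a filter, 1 in nuclei of 1000 to 3000 UMIs, 5 under the study's limits and 2 to 17 over the left-out libraries. The 1 feature called in nuclei of 1000 to 3000 UMIs and the 2 called without Control 1 were not among the 10. The interaction turned in sign for BCAS1 (0.0455 against at least 3 GFAP UMIs) and, in nuclei of 1000 to 3000 UMIs, for LY6Hli1 (-0.835) and LINC-RP1-21O18.1-3 (0.0867). ADARB2 turned to 2.06 against at least 3 GFAP UMIs, 0.773 without clusters led by other types and 0.476 in nuclei of 1000 to 3000 UMIs. Between GFAP-free and GFAP-carrying nuclei SLC8A1 (-0.188), GRIK2 (-0.325) and SYT1 (-0.0331) turned without clusters led by other types, SLC8A1 (-0.170), RYR3 (-0.0973) and GRIK2 (-0.0298) turned in nuclei of 1000 to 3000 UMIs, and VCAN turned with a marker sum of at least 5 (-0.117). RORB, at -0.00010, had values of the other sign in most alternatives. Without clusters led by other types it had 0.268 and was called (edgeR adjusted p = 0.00929). The other values were smaller and not called: 0.0077 with DESeq2, 0.112 against at least 3 GFAP UMIs, 0.0050 without LINC-FRMD8-1, 0.0219 without antisense-named features, 0.132 with a marker sum of at least 5, 0.0790 without a filter, 0.168 in nuclei of 1000 to 3000 UMIs, 0.147 under the study's limits, 0.0076 with upper quartile scaling and -0.0554 to 0.0649 over the left-out libraries. HES1 had -0.00441 to 0.118 over those. The causes were not tested. Among the values of single genes 1353 kept their direction and side of the threshold, 468 were no longer past it, 38 were newly past it and 28 turned. The share in clusters led by other types was 21.7% and 21.8% at resolution 1. Depth limits both the GFAP condition and low genes: 0 UMIs do not separate low from absent GFAP.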
